A study of Chrysanthemum x morifolium with 4 samples.

Results

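The comparison described here sets chrysanthemum leaves taken through cold acclimation and then freezing against control leaves, and divides the difference into what was present after acclimation and what came at the freezing step. The leaves were of the cultivar Jinba (Chrysanthemum x morifolium). The unigenes were chosen by depth: all those with at least 10 counts summed over the 4 libraries, 48004 of the 93837 listed. A unigene is a transcript pieced together from the reads. The table gives each an assembly identifier and pairs none with a gene name, so the unigenes are described by level, length and response, and the leaf origin could not be checked against marker genes.

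All plants were seedlings raised from tissue culture for 20 days under 16 h of light at 25 °C by day and 22 °C by night, and then kept in pots for 3 days. Control plants stayed in normal conditions. Acclimated plants spent 24 h at 4 °C. Acclimated and frozen plants spent 24 h at 4 °C and then 4 h at -4 °C, and a last group was held for 4 h at -4 °C with no acclimation. Leaves of the last groups are called acclimated-frozen and directly frozen. Each treatment gave 1 library, a mixture of leaves of 3 replicates, and the variation from plant to plant was therefore not measured. No difference between a pair of libraries has a replicate check or a p-value, and every interval covers counting error only.

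Cold acclimation is the gain in freezing tolerance that many temperate plants make during a spell of low temperature above freezing. In well studied species such as Arabidopsis, chilling induces CBF transcription factors, which switch on protective genes for dehydrins and other cold-regulated proteins, while sugars build up and membrane lipids change. Below freezing, ice usually forms outside the cells first and draws water from them, so that freezing is in part a dehydration stress. Temperate plants usually meet chilling before frost in autumn, the order followed by this sequence.

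The libraries held 14024558 counts (acclimated and frozen) to 15781435 counts (control), and 99.6 to 99.7% of these lay in the 48004 unigenes. A count of 0, taken to allow up to 3 counts, limits a level to 0.190 to 0.214 CPM (counts scaled to a common total). In the control 2823 of the unigenes had no count, and in the acclimated and frozen library 2745. The acclimated library had 2578 such unigenes and the directly frozen one fewer, 1244. At the limit of the depth rule, 34 of the 1708 unigenes with 10 summed counts differed by the rule below, and 37 of the 2020 with 9. All of these were higher. With so few counts the rule could not give a lower call, since the acclimated and frozen library is the smaller one after scaling. A higher call from 0 needed fewer counts than a lower call to 0.

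Leaves taken through acclimation and freezing differed from the control in 20.2% of the 47876 unigenes with a count in either library. Of these, 5531 were called higher (11.6%) and 4125 lower (8.62%). To be called, a unigene needed a ratio of TMM-scaled counts with its 95% interval entirely beyond 2-fold. TMM is a scaling that assumes most transcripts keep their share. The median log2 ratio was 3.02 in the unigenes called higher and -2.47 in those called lower, or 2.47 and -2.23 with counts of 0 replaced by the limit of 3. Over all 48004 unigenes it was -0.05. In leaves as a whole, a change in the transcripts of each cell and a change in the number of cells of a type cannot be told apart. An additive model over the 4 libraries, which takes its spread from the single degree of freedom left over, called 3322 higher and 2210 lower (edgeR's quasi-likelihood test, adjusted p under 0.05). Of these, 3320 and 2210 were among the unigenes called here. In that model the sum of both effects is in essence the same difference between the acclimated and frozen library and the control. The overlap is therefore largely built in and is no separate check. The adjusted p-values of that model rest on the spread left by any interaction, and the spread between plants was not measured.

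Differences past the larger limits were mostly on the higher side. With the interval beyond 2-fold 57.3% of calls were higher, beyond 4-fold 72.8% (2191 higher, 818 lower) and beyond 8-fold 86.1% (976 higher, 158 lower). Beyond 32-fold there were 191 higher and 6 lower unigenes. The steps differed in this. For the acclimation step, acclimated leaves against control, 326 unigenes were higher and 166 lower beyond 8-fold. For the freezing step, acclimated and frozen leaves against acclimated ones, 455 were higher and 23 lower. With intervals merely beyond equal levels, lower unigenes were the more numerous at both steps. There were 11701 higher and 12236 lower at acclimation, and 8090 higher and 9354 lower at freezing. The balance at the 2-fold limit moved with scaling, to 60.3% higher with median-of-ratios factors and 51.9% with total counts.

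**Figure D1:**
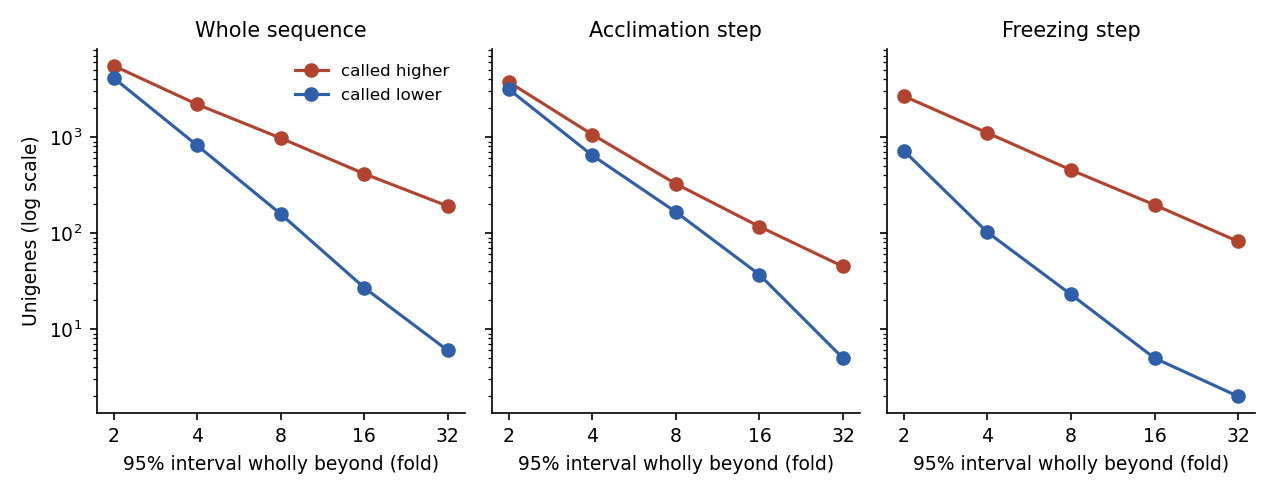
Number of unigenes (log scale) called higher or lower against the fold that the 95% counting interval had to exceed, for the whole sequence and for each step. Over the whole sequence the counts go from 5531 higher and 4125 lower at 2-fold to 191 and 6 at 32-fold, and the freezing step has fewer lower than higher calls at every limit shown (2674 and 720 at 2-fold).

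The unigenes called higher made up a small part of the control library and a large part of the acclimated-frozen one. Their share was 6.88% of control counts (exact 95% binomial interval 6.86 to 6.89%), 24.0% in acclimated leaves, 33.1% in acclimated-frozen leaves and 18.5% in directly frozen leaves. The unigenes called lower held 29.3%, 10.9%, 8.10% and 16.2% in the same order. Of the 26.2 points gained by the first set, 17.1 were present after acclimation and 9.12 came at the freezing step, so that 65.2% of the shift was in place before freezing. The share of the second set decreased by 21.2 points in all and decreased by 2.76 points at the freezing step, so that 87.0% of its shift was in place before freezing. Both sets were chosen on the control and the acclimated and frozen library, so those 2 values describe the choice. The acclimated library and the one frozen without acclimation took no part in it.

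**Figure D2:**
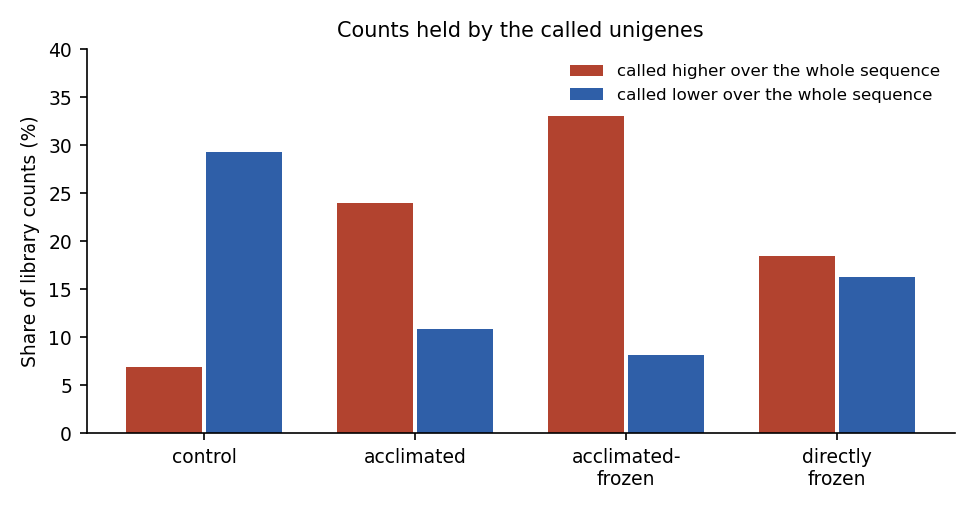
Share of each library's counts (%, bars from 0) held by the unigenes called higher and the unigenes called lower over the whole sequence. The higher set goes from 6.88% in the control through 24.0% to 33.1%, the lower set from 29.3% through 10.9% to 8.10%, and both lie between these ends in leaves frozen without acclimation (18.5% and 16.2%).

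On the log2 scale the whole change of a unigene is the sum of its acclimation step and its freezing step. Among the unigenes called higher, the median acclimation step was 1.65 and the median freezing step 1.10. Among those called lower the medians were -1.63 and -0.68. Over all 48004 unigenes they were 0.0 and -0.07. The acclimation step was the larger of the steps in 3307 unigenes called higher (59.8%) and in 2968 called lower (72.0%). Both steps pointed the same way in 62.3% of the higher set and in 77.7% of the lower set. The steps share the acclimated library with opposite sign, and each shares another library with the whole change, so no correlation between them is given. Chance deviations of the control enter the acclimation step of a chosen unigene and those of the acclimated and frozen library enter its freezing step, and their size was not measured.

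**Figure D3:**
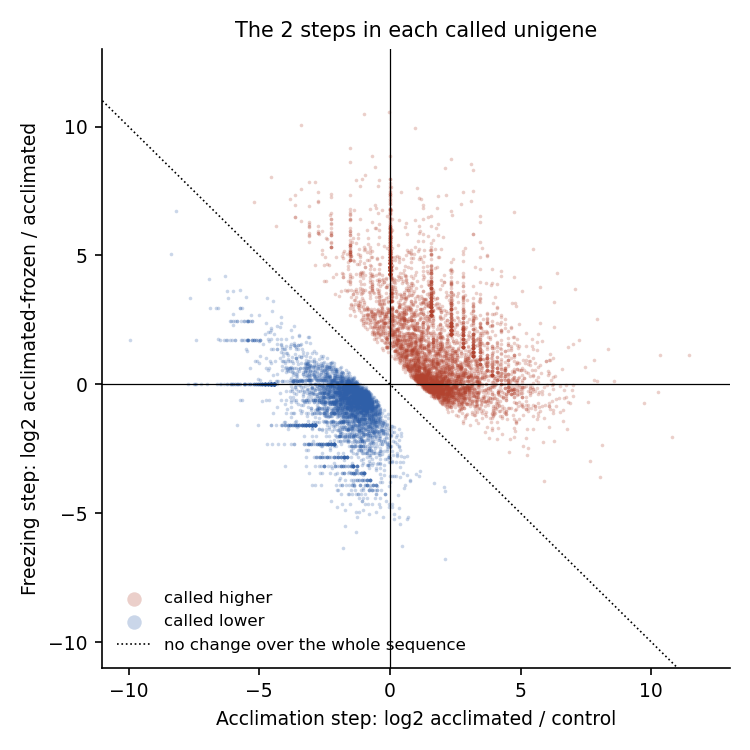
Acclimation step (x axis, log2 ratio of acclimated to control) against freezing step (y axis, log2 ratio of acclimated and frozen to acclimated) for each unigene called over the whole sequence, 1 point per unigene; the dotted line marks no change over the whole sequence. The 5531 higher unigenes reach to the right along the x axis and upwards along the y axis, whereas the 4125 lower ones lie mainly to the left (median steps -1.63 and -0.68). Rows and columns of points are unigenes with very few counts.

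The unigenes called higher reached their final level by different routes, seen when the same 2-fold rule was applied to each step. The acclimation step was called higher in 2460 of them (44.5%) and the freezing step in 2031 (36.7%), with 228 (4.12%) in both. For 1268 (22.9%) neither step met the rule by itself. For comparison, of all unigenes with a count in either library, 14.5% were called at the acclimation step (7.9% higher and 6.64% lower) and 7.16% at the freezing step (5.64% higher and 1.52% lower).

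The routes of the higher set differed in level. Unigenes called higher at the acclimation step but not at the freezing step (2232, of which 45 were called lower at freezing) stood at a median of 4.38 FPKM in control, 21.0 FPKM in acclimated and 18.9 FPKM in acclimated-frozen leaves. FPKM is the count corrected for unigene length and for the library's total. Unigenes called higher at the freezing step but not at acclimation (1803, of which 26 were called lower at acclimation) were mostly scarce in leaves that had not been frozen, with medians of 0.448 FPKM in the control and 0.632 FPKM after acclimation, and stood at 7.53 FPKM in acclimated-frozen leaves. The 228 called at both steps climbed through medians of 1.5, 10.1 and 53.9 FPKM. In the leaves frozen without acclimation, which played no part in the choice or the routes, the medians were 7.88 FPKM for the acclimation route, 4.6 FPKM for the freezing route and 22.6 FPKM for those called at both steps.

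Few unigenes of the lower set followed the freezing route. The acclimation step was called lower in 2076 of the 4125 (50.3%) and the freezing step in 255 (6.18%), with 32 in both, and for 1826 (44.3%) neither step met the rule. The 2044 called lower at the acclimation step but not at the freezing step (27 of them called higher there) had medians of 8.93 FPKM in control leaves, 1.72 FPKM in acclimated leaves and 1.40 FPKM in acclimated-frozen leaves. They stood at 5.73 FPKM in leaves frozen without acclimation. The 223 called lower at the freezing step but not at acclimation (4 of them called higher there) had medians of 5.51, 4.23 and 0.759 FPKM along the sequence and 3.35 FPKM in directly frozen leaves. The lower set stood at a median of 2.21 FPKM after acclimation, against 4.35 FPKM for the higher set, and 1960 of its unigenes had fewer than 100 counts over both ends. The median half-width of the finite intervals at the freezing step was 0.77 in the lower and 0.42 in the higher set (log2). The freezing step was called in 6.22% of the lower set with fewer than 100 counts over both ends, in 6.46% with 100 or more but under 1000 and in 5.03% with 1000 or more.

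**Figure D4:**
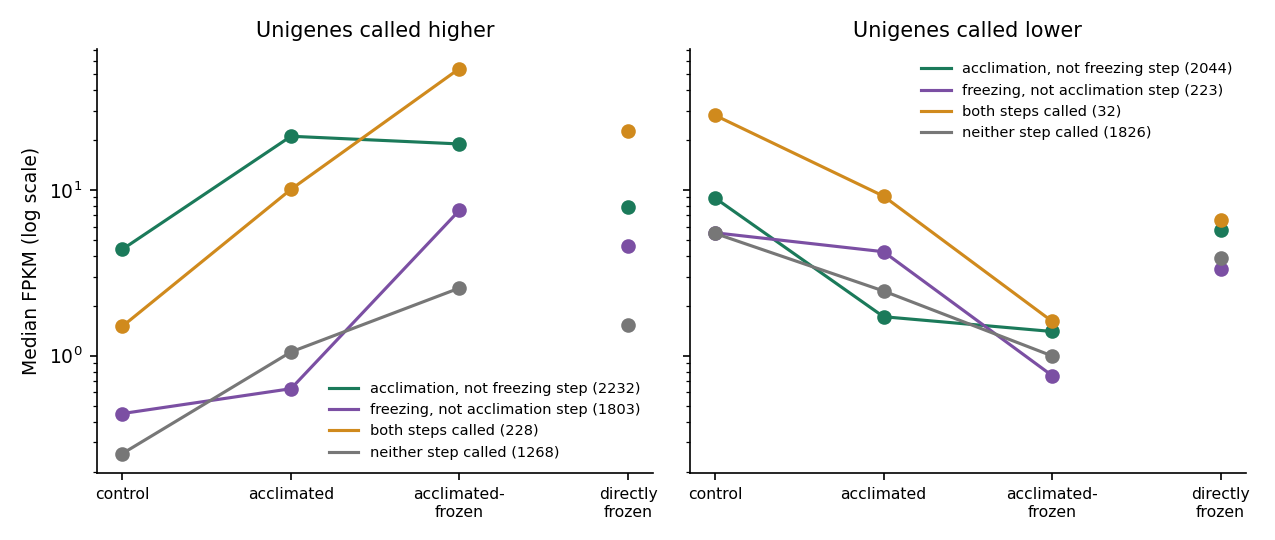
Median FPKM (log scale) in each library of the unigenes called higher (left) and lower (right), by the step at which the 2-fold rule was also met in the same direction; lines join the 3 libraries of the sequence and the separate points are leaves frozen without acclimation. In the higher set the acclimation route is at 21.0 FPKM before freezing and the freezing route at 0.632 FPKM, and in the lower set the acclimation route has reached 1.72 FPKM before freezing.

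The share of each unigene's change that was already present after acclimation was taken as the acclimation step divided by the whole change. Its median was 64.2% in the higher set, with quartiles at 24.0% and 96.3%, and 69.3% in the lower set, with quartiles at 47.6% and 93.5%. Over all 48004 unigenes, most of which changed little, the median was 70.0%, with quartiles at 12.9% and 120%, so the medians of the sets lie near that of all unigenes. The quartiles lay farther apart in the higher set than in the lower. At least 75% of the change was present in 42.6% of the higher set and 42.9% of the lower set, but under 25% was present in 25.3% and 8.63%. In 543 unigenes of the higher set (9.82%) the level after acclimation was below the control, with a median acclimation step of -0.75 followed by a freezing step of 3.56. In 320 (5.79%) it had passed the final level by more than 25% of the change, and medians there went from 5.99 FPKM in the control to 33.2 FPKM after acclimation and back to 18.2 FPKM.

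The answer for the higher set depends on the scale. Measured on scaled counts rather than their logarithm, the median share present after acclimation was 36.5% in the higher set (quartiles 5.86% and 92.7%) and 86.1% in the lower set (69.8% and 97.4%). On this scale under 25% of the gain was present in 43.4% of the higher set, and at least 75% of the loss in 68.7% of the lower set. A many-fold gain in 2 equal log2 steps adds most of its copies at the second step, and a many-fold loss sheds most of its copies at the first, so the scales part in opposite directions for the sets. The order of the sets on the log2 scale turned with depth: among unigenes with at least 100 counts over the 4 libraries the median was 77.4% in the higher and 73.3% in the lower set.

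**Figure D5:**
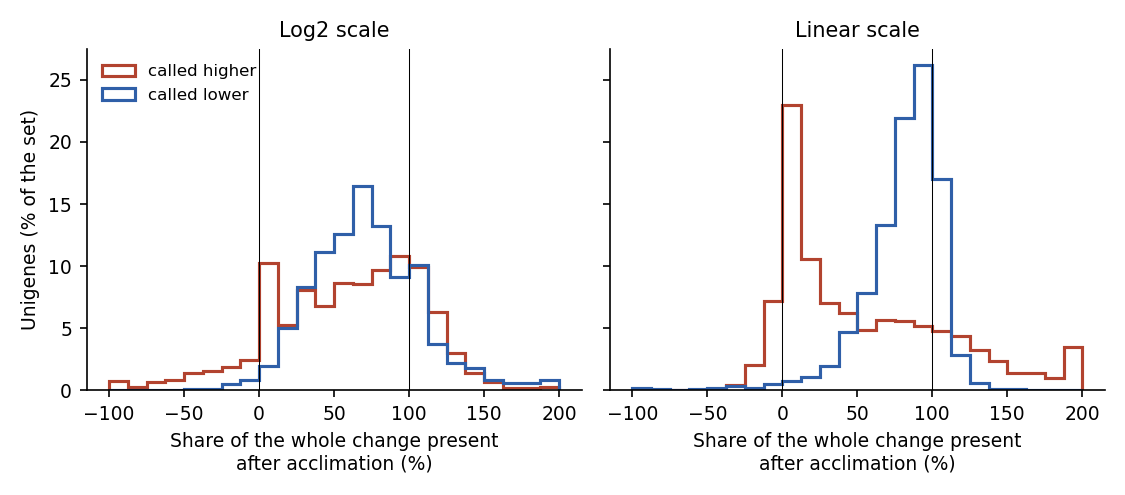
Distribution of the share of the whole change present after acclimation (%), as a percentage of the unigenes called higher or lower, on the log2 scale (left) and on the linear scale of scaled counts (right); vertical lines mark 0 and 100%, and values beyond -100 or 200% are placed in the end bins. On the linear scale the higher set gathers near 0 (median 36.5%) and the lower set near 100% (median 86.1%).

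In the higher set, the larger the gain, the larger was the part of it that came at the freezing step. Among the 3340 higher unigenes whose interval bound lay between 2-fold and 4-fold, the median share present after acclimation was 73.9%, and the freezing step was called in 22.6%. For the 1215 with a bound between 4-fold and 8-fold these values were 58.3% and 47.8%. For the 976 with a bound over 8-fold they were 44.0% and 71.2%, with median steps of 2.39 at acclimation and 2.90 at freezing. In the lower set the median ran the other way. The median share present was 68.6% in the 3307 unigenes with a bound under 4-fold and 75.6% in the 158 with a bound over 8-fold, of which 91.8% were called at the acclimation step. Calls at the freezing step nevertheless grew with size here too, from 4.35% through 11.4% to 22.8%. The same order was found among deeply counted unigenes, with 1000 or more counts over the control and the acclimated-frozen library. There the median share present in the higher set was 92.6% (703 unigenes), 75.8% (253) and 47.0% (324) from the smallest to the largest bound, and the freezing step was called in 14.8%, 40.3% and 67.3%. The acclimation step was called in 64.4%, 66.0% and 63.0%. In the lower set the median share was 81.6% (345), 83.6% (91) and 86.6% (41). The classes were cut on the whole change, which both steps make up, so they are a description.

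Depth moved with this share. Among the higher unigenes with fewer than 100 counts over the control and the acclimated and frozen library (2454) the median share present was 52.1%. It was 76.4% with 100 or more but under 1000 counts (1797) and 81.9% with 1000 or more (1280). The lower set followed the same order with 61.3%, 72.6% and 82.5%. The part of counting error and of the added prior count in this was not tested. In the 1280 higher unigenes with 1000 or more counts, whose intervals are narrow, the acclimation step was called in 64.4% and the freezing step in 33.1%. In the 477 lower ones of that depth these values were 69.8% and 5.03%.

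Many of the gains started from no detected transcript. Of the higher set, 1168 unigenes (21.1%) had no count in the control, and 848 of these had at least 1 count after acclimation. Of all 48004 unigenes, 5.88% had no count in the control. A higher call favours a low control count, so the larger share in the set is in part built in. Over the 1168 the median counts were 2 after acclimation, 12 in acclimated-frozen leaves and 5 in directly frozen leaves, so most are scarce and their fold changes are poorly defined. The other 320 had no count after acclimation either. Of these, 295 had counts in the leaves frozen without acclimation, and 25 were seen in the acclimated and frozen library alone. Over all unigenes chosen by depth, only 5.37% had no count after acclimation and 2.59% none in directly frozen leaves. Having counts in those libraries was thus the usual case and does not mark out the 848 or the 295. A comparison with unigenes of like depth was not tested. Of the lower set, 630 unigenes (15.3%) had no count in acclimated-frozen leaves, from a median of 14 counts in the control, and 172 of them had already reached 0 after acclimation. The share with no count in acclimated-frozen leaves was 5.72% over all 48004, and a lower call likewise favours such unigenes. A lower call to 0 needed more counts than a higher call from 0, so the 1168 and the 630 are not directly comparable.

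Abundant unigenes met the call rule more often than scarce ones, and at 10 FPKM or more they were called higher more often than lower. Counting intervals narrow with depth, so the rate of calls can rise with abundance by the rule alone. The median summed count was 17 under 1 FPKM and 12708 at 100 FPKM or more. Abundance was taken from the mean FPKM of the acclimated leaves and those frozen without acclimation. These libraries are outside the contrast, but the sets had moved the same way in them. The higher set had medians of 1.31 FPKM in control, 4.35 FPKM in acclimated and 5.02 FPKM in directly frozen leaves. The lower set had 6.94, 2.21 and 4.69 FPKM. The measure thus lifts the higher set and lowers the lower set, so the balance by abundance is in part built in. At 100 FPKM or more, 285 of 1058 unigenes were higher (26.9%) and 122 lower (11.5%). At 10 to 100 FPKM 17.5% were higher and 8.05% lower. At 1 to 10 FPKM the balance was near even, with 2001 higher and 2170 lower of 19607, and it turned with scaling: 48.0% of calls there were higher with TMM, 51.0% with median-of-ratios factors and 42.9% with total counts. Under 1 FPKM 7.85% were higher and 5.74% lower, but with few counts the rule reaches a higher call more easily than a lower one. The implied length had a median of 949 bases in the higher set and 854 bases in the lower set, against 734 bases over all 48004. Of unigenes of 2000 bases or more, 19.3% were higher and 7.08% lower, and of those under 300 bases 6.76% and 3.46%. The balance did not follow length: the higher share of calls was 66.2% under 300 bases, 59.8% from 300, 51.1% from 500, 58.4% from 1000 and 73.1% from 2000 bases. Length moves with depth, since the median summed count was 2383 in the longest class and 18 in the shortest, and the parts of each were not tested.

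The loss of counts was concentrated in few unigenes and the gain was spread over many. By the summed difference in scaled counts, 23 unigenes made up 50% of the loss in the lower set, whereas 257 were needed for 50% of the gain in the higher set. The 100 with the largest losses held 21.8% of counts in the control, 8.08% after acclimation, 6.12% in acclimated-frozen leaves and 10.4% in directly frozen leaves. Of these 100, 81 were called lower at the acclimation step and 7 at the freezing step. The 100 with the largest gains held 1.25%, 6.23%, 9.80% and 4.98% of counts in the same order of libraries. Of them, 77 were called higher at the acclimation step and 49 at the freezing step. Among all lower unigenes with 1000 or more counts over both ends, the acclimation step was called in 69.8% and the freezing step in 5.03%. In the higher ones of that depth these values were 64.4% and 33.1%. Of all unigenes with a count in either library, 6.64% were called lower at acclimation and 1.52% at freezing. The shares called higher were 7.9% and 5.64%. Both lists of 100 were picked by the size of the change and are a description.

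Leaves that met each treatment by itself gave a view with no library in common with the contrast. The ratio of leaves frozen without acclimation to acclimated leaves had a median log2 value of -0.25 in the higher set, with quartiles at -1.55 and 1.62, against 0.11 over all 48004 unigenes. Of the higher set, 1076 (19.5%) were called higher in the frozen leaves and 1406 (25.4%) higher in the acclimated ones, where 13.1% of all unigenes with a count in either were called (7.15% and 5.92%). In the lower set the median was 0.83, and 802 (19.4%) were called higher in the frozen leaves against 59 (1.43%) lower. Levels of the lower set were thus lower after 24 h at 4 °C than after 4 h at -4 °C in 79.2% of its unigenes, against 53.2% of all 48004. In the higher set this was so in 45.3%. The treatments differed in length as well as temperature. With total counts the median of the higher set was -0.02, and that of the lower set 0.98. With median-of-ratios factors these were -0.34 and 0.78. Another scaling moves the ratios of all unigenes together, so these values cannot be set against the 0.11, which is for TMM.

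The next unigenes were taken by a fixed rule, in each direction 1 with most and 1 with little of its log2 change present after acclimation. Unigene c94999.graph_c0 (831 bases) had 1 count in the control, 3994 after acclimation, 7763 in acclimated-frozen leaves and 4 in directly frozen leaves. In FPKM these are 0.0763, 317, 666 and 0.336. It was high in both acclimated libraries and near the limit of detection in the other libraries. The log2 ratio of the whole sequence was 12.58 (95% interval 10.71 to 18.49), with 11.43 of it at the acclimation step (9.57 to 17.35) and 1.15 at the freezing step (1.09 to 1.20), so that it was called at both steps. On the log2 scale 90.9% of its change was present after acclimation, but 45.2% on the linear scale. Its 1 count in the control was under the limit of 3. The sizes of its whole change and acclimation step, and so its log2 share, are poorly defined.

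Unigene c113882.graph_c0 (2141 bases) followed freezing. It had 11 counts in the control, 10 after acclimation, 13962 in acclimated-frozen leaves and 14695 in directly frozen leaves, or 0.326, 0.308, 465 and 479 FPKM. Both frozen libraries were high and both unfrozen ones low. Its log2 ratio was 10.51 over the whole sequence (9.74 to 11.58), -0.05 at the acclimation step (-1.45 to 1.32) and 10.56 at the freezing step (9.75 to 11.69).

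Unigene c92928.graph_c0 (969 bases) had 514 counts in the control, 0 after acclimation, 1 in acclimated-frozen leaves and 64 in directly frozen leaves. It was thus at or near 0 in both acclimated libraries, and the upper end of the 95% interval of its acclimation step was a log2 ratio of -7.04. Over the whole sequence its log2 ratio was -8.21 (-14.05 to -6.25), and no ratio is given for the freezing step, where both libraries were under the limit of 3 counts. Unigene c93578.graph_c0 (494 bases) had 261 counts in the control, 74 after acclimation, 1 in acclimated-frozen leaves and 3 in directly frozen leaves. It was lower in all cold-treated libraries and lowest in the frozen ones. On the log2 scale 23.9% of its change was present after acclimation, but 70.3% on the linear scale. Its 1 count in acclimated-frozen leaves was under the limit of 3, so the size of its freezing step is poorly defined. The log2 ratio of c93578.graph_c0 was -7.24 over the whole sequence (-13.07 to -5.27), with -1.73 at the acclimation step (-2.13 to -1.36) and -5.51 at the freezing step (-11.35 to -3.50), and it was called at both.

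The whole comparison hid some large movements that cancelled. Of the unigenes not called over the whole sequence, 196 were called higher at the acclimation step and lower at the freezing step. Their medians went from 1.19 FPKM in control leaves to 8.79 FPKM in acclimated leaves and 1.32 FPKM in acclimated-frozen leaves, and stood at 1.80 FPKM in directly frozen leaves. A further 184 were called lower and then higher, with medians of 8.41, 1.27 and 8.29 FPKM, and 11.3 FPKM in directly frozen leaves. In both groups the leaves frozen without acclimation were nearer to the control than to the acclimated leaves. Together they make up 380 of the 38348 unigenes not called. The acclimated library enters both steps with opposite sign, so a chance high or low value in that library alone would give the same pattern, and this was not tested.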

How the data were processed

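Total RNA of leaves was sequenced in 4 libraries, 1 per treatment, extracted with Trizol per the labels' protocols. Counts per unigene, as the authors deposited them, are whole and unscaled. The FPKM values deposited by the authors are scaled by length and by total counts and imply 1 length per unigene (largest relative difference between libraries 2.04e-08). Bowtie 0.12.2, Cufflinks and the mouse build mm8 are named, per the submitters' processing notes; how a mouse build relates to assembled chrysanthemum sequences, the assembler, the counting rule and the use of strand are not given in the sources used here. Near-identical unigenes may share reads.

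Libraries were scaled by TMM (edgeR 4.0.16, R 4.3.3; factor 0.993 for the control, 0.976 for acclimated, 0.928 for acclimated-frozen and 1.11 for directly frozen leaves). Ratios were given exact Clopper-Pearson 95% intervals (scipy 1.17.1), and log2 ratios a prior count of 0.5. Shares of counts are of unscaled totals. An additive model of acclimation and freezing (edgeR's quasi-likelihood test, Benjamini-Hochberg over 48004 unigenes) has 1 residual degree of freedom, tests the sum of both effects and takes any interaction as spread. Alternatives included DESeq2 1.42.0 size factors. Rules were run on simulated data, with outcomes not reported here. The common spread in the additive model was a coefficient of variation of 30.1%, which takes in any interaction. The counting intervals leave such spread out. Unigenes were named by rule: of those called with at least 100 counts, the one with the interval bound farthest from equal levels, in each direction, among those with 75 to 125% and with -25 to 25% of the change present after acclimation. Members, lists and rules were chosen with earlier results of these data known.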

Additional observations from a re-analysis of the deposited data

How the results depend on the processing

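Of 134 values of 33 summary results under other settings, no median changed sign, but the balance of calls crossed 50% under 2 settings, named below as turned. Of these values 78 kept within the limits set for them (1.5 times for a count, the counting interval for other values) and 56 did not. The call rule moved the counts most: 13340 higher and 13119 lower with intervals beyond equal levels (50.4% higher), 2191 and 818 beyond 4-fold (72.8%), 3622 and 2679 with at least 100 counts, 3322 and 2210 in the additive model (60.1%), and 7259 lower with a log2(FPKM + 1) difference of at least 1 (47.0% higher, so the balance turned). Median-of-ratios factors gave 60.3% higher and total counts 51.9%, and at 1 to 10 FPKM 51.0% (the balance turned, from 48.0%) and 42.9%. The counts held by the higher set were then 7.61, 25.4 and 34.6% (control, acclimated, acclimated and frozen) and 6.16, 22.5 and 31.6%, and by the lower set 27.5, 9.97 and 7.34% and 31.1, 11.8 and 8.90%. The part of the lower set with at least 75% of the change present was 45.0% and 40.4%.

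With at least 100 counts the medians of the higher set were 2.23 for the whole sequence and 0.54 for the freezing step. The median share present was then 77.4% in the higher and 73.3% in the lower set, so that the order of the sets turned. With zeros at the limit the first was 2.47. The part with under 25% and with at least 75% present was 22.4 and 51.7% (higher) and 6.16 and 47.4% (lower) with at least 100 counts, 29.5 and 33.1% and 6.97 and 45.4% beyond 4-fold, and 29.0 and 41.0% and 6.76 and 47.0% with a prior count of 2. On the linear scale it was 43.4 and 32.8% and 3.47 and 68.7%, with a median of 36.5% present in the higher set. With steps called beyond equal levels, 3498 of the higher set were called at the freezing step and 1612 at both, and 3726, 1632 and 1311 of the lower set at acclimation, freezing and both. The cause of these movements was not tested. The medians of frozen against acclimated leaves under other scalings were added after the data were seen. No paired analysis was possible because each treatment has 1 library. The spread between plants is unknown, and depth limits the unigenes with few counts.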

Other observations

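Some unigenes reached their final level against the direction of a step. Of the unigenes called higher over the whole sequence, 45 were called higher at the acclimation step and lower at the freezing step, with medians of 2.76 FPKM in control, 57.5 FPKM in acclimated, 17.3 FPKM in acclimated-frozen leaves and 9.75 FPKM in directly frozen leaves. Another 26 were called lower and then higher, with medians of 7.21, 1.76 and 26.7 FPKM along the sequence and 28.2 FPKM in directly frozen leaves. Of the unigenes called lower over the whole sequence, 27 were called lower at the acclimation step and higher at the freezing step (medians 43.8, 2.68 and 12.0 FPKM, and 32.6 FPKM in directly frozen leaves) and 4 the other way. These groups were formed after their values were seen and rest on 1 library per treatment.

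The 38348 unigenes not called held 63.5% of control counts, 64.9% of those in acclimated leaves, 58.5% in acclimated-frozen leaves and 64.9% in directly frozen leaves. In the higher set the highest of the 4 scaled levels was in the acclimated and frozen library for 3878 unigenes (70.1%), in the acclimated library for 1198 (21.7%) and in the directly frozen library for 455 (8.23%). In the lower set the lowest level was in the acclimated and frozen library for 3176 (77.0%), in the acclimated library for 841 (20.4%) and in the directly frozen library for 108 (2.62%). The choice of the sets favours the acclimated and frozen library in both.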
